A study of Homo sapiens with 6 samples.

Results

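Protocadherins and numbered cadherins, a large group of calcium-dependent adhesion receptors, were examined in SKOV3 cells, an established human ovarian cancer line, after silencing of KLF5. The members were the protein-coding genes of the deposited table whose symbol begins with PCDH or consists of CDH and a number, which gave 74 genes of 29185. Of these, 49 were clustered protocadherins (12 PCDHA, 15 PCDHB and 22 PCDHG genes), 9 were protocadherins outside the clusters and 16 were numbered cadherins. The sh-KLF5 group (3 libraries) was made from SKOV3 cells with stable expression of a short hairpin RNA against KLF5, a zinc finger transcription factor. The hairpin was cloned into a pLKO.1 lentiviral vector, and stable lines were selected with puromycin. The sh-NC group (3 libraries) was made from the control cells, titled NC and with a genotype labelled WT, and the vector or hairpin they carried is not given in the sources used here. No drug treatment is named for either group, and nothing in the labels says whether the 3 libraries of a group came from separate cultures. The p-values below therefore measure the spread between these libraries only, which may be technical.

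Cadherins are membrane proteins whose extracellular cadherin repeats bind cadherins on a neighbouring cell when calcium is present. In the classical members the cytoplasmic tail binds catenins and, through them, the actin skeleton, which holds adherens junctions together. Clustered protocadherins are encoded in 3 neighbouring gene arrays on chromosome 5. Each variable exon of the PCDHA and PCDHG arrays has its own promoter and is spliced to constant exons that the whole array shares, whereas PCDHB genes mostly consist of a single exon. They are best known from neurons, where each cell uses a different choice of isoforms. The protocadherins outside the clusters are encoded by separate genes, and several of them signal to actin regulators rather than to catenins.

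KLF5 itself had normalized counts of 4371, 4425 and 4494 in the sh-NC libraries and of 1745, 1440 and 1436 in the sh-KLF5 libraries, so 34.8% of the control level remained. Library totals lay between 15852319 and 17543896 reads, and a read count of 0 in a library allows up to 3 reads. Pairs of libraries of the same group differed by more than counting noise (chi-square divided by its degrees of freedom, from 4.72 to 33.6), and the largest values were those of sh-KLF5 library 1 against the others of its group. Of the markers of other cell types, the summed level of 6 fibroblast genes lay between 656 and 1047 normalized counts in sh-NC and between 261 and 593 in sh-KLF5, with 3 of them lower, none at 0 in every library, and its part in the results below was not tested. The sum of 8 epithelial carcinoma markers lay between 53804 and 65811 in sh-NC and between 28390 and 38849 in sh-KLF5, with 2 of them lower. The 4 endothelial markers in the table summed to between 168 and 251 in sh-NC and to between 173 and 247 in sh-KLF5, with 1 higher. No library held more than 3 reads of the leukocyte markers PTPRC and CD68, whereas CD14 of the same list had 238, 151 and 180 reads in sh-NC and 340, 391 and 189 in sh-KLF5 (log2 fold change 0.66, limma adjusted p = 0.0725). The 5 neuronal markers, of which SNAP25 had 3 reads or fewer in every library, summed to between 51.2 and 61.5 in sh-NC and to between 52.1 and 55.0 in sh-KLF5.

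In sh-KLF5 cells, 5 members were lower than in sh-NC cells and none was higher. The lower genes were PCDH15 and PCDH10 outside the clusters, PCDHGB6 in the PCDHG array, and the cadherins CDH13 and CDH3. A gene was called when its adjusted p was under 0.05 and its log2 fold change was above 1 or below -1 (limma on log2 of the normalized count + 1, Benjamini-Hochberg adjustment over all 15803 tested genes). On this scale the change of genes with few reads depends on the added 1 and can be smaller or larger than the ratio of the group means. Fewer transcripts per cell cannot be told apart from fewer cells that make them. With 27 members tested, the 5 lower genes stood beside 3.37% of all tested genes that were called lower. The count of 0 higher members stood beside 1.9%. Of the lower genes, PCDH15, PCDH10 and PCDHGB6 had enough reads to be tested only in sh-NC, the group in which they were higher. Dropping genes short of 10 reads in any library left 16 members. Of these, CDH13 and CDH3 were called lower, beside 231 of 13951 genes. Most of the count of 5 thus rests on genes that entered the test through their higher group. At an unadjusted p under 0.05, irrespective of fold, 7 members were lower and 3 were higher, and no share over all genes is given beside these counts. With the fold threshold kept, 6 members were lower and 2 higher at an unadjusted p under 0.05, beside 656 lower and 377 higher of all 15803 genes. Both edgeR and DESeq2 also called 5 members lower and 0 higher. The median log2 fold change of the 27 tested members was 0.01, that of all tested genes was 0.00, and 13 members had a negative and 14 a positive value.

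The remaining 47 members did not pass the filter on low reads, with at most 19 reads in any library and, summed over the group, 535 reads in sh-NC and 244 reads in sh-KLF5. Of the 27 that passed, 16 had enough reads in all 3 libraries of both groups, while PCDHB16, PCDHGA4, PCDHGB3, PCDHGB6, PCDH15 and PCDH10 passed only through sh-NC, PCDHB15, PCDHGA1 and PCDH12 only through sh-KLF5, and PCDHB9 and PCDHGA9 through some libraries of each group. Passing through 1 group only favours genes with more reads in that group. The share of members called is read with this in mind. Over all 74 members, irrespective of the filter, every sh-KLF5 library was below every sh-NC library for 19 genes (11 clustered, 4 other protocadherins and 4 cadherins), and this held for 11.7% of all genes in the table. Every sh-KLF5 library was above every sh-NC library for 5 members, PCDHB14, PCDHB15, PCDHGA1, PCDH12 and CDH11, and for 9.96% of all genes in the table. A total of 13 members had 3 reads or fewer in every library, 12 were at 0 in all sh-KLF5 libraries and 3 at 0 in all sh-NC libraries. No share over all genes is given beside these counts. Over the whole table, 24753, 24703 and 23600 genes had reads in the sh-NC libraries and 22899, 23962 and 23698 in the sh-KLF5 libraries. When every gene was fitted without a filter, 14 members were called lower and 0 higher, beside 2.78% and 1.31% of all 29185 genes. The 9 additional genes were PCDHA10, PCDHA11, PCDHA13, PCDHAC1, PCDHB2, PCDHB16, PCDHGB1, PCDH17 and CDH4, most of them with under 20 reads in each library.

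**Figure D1:**
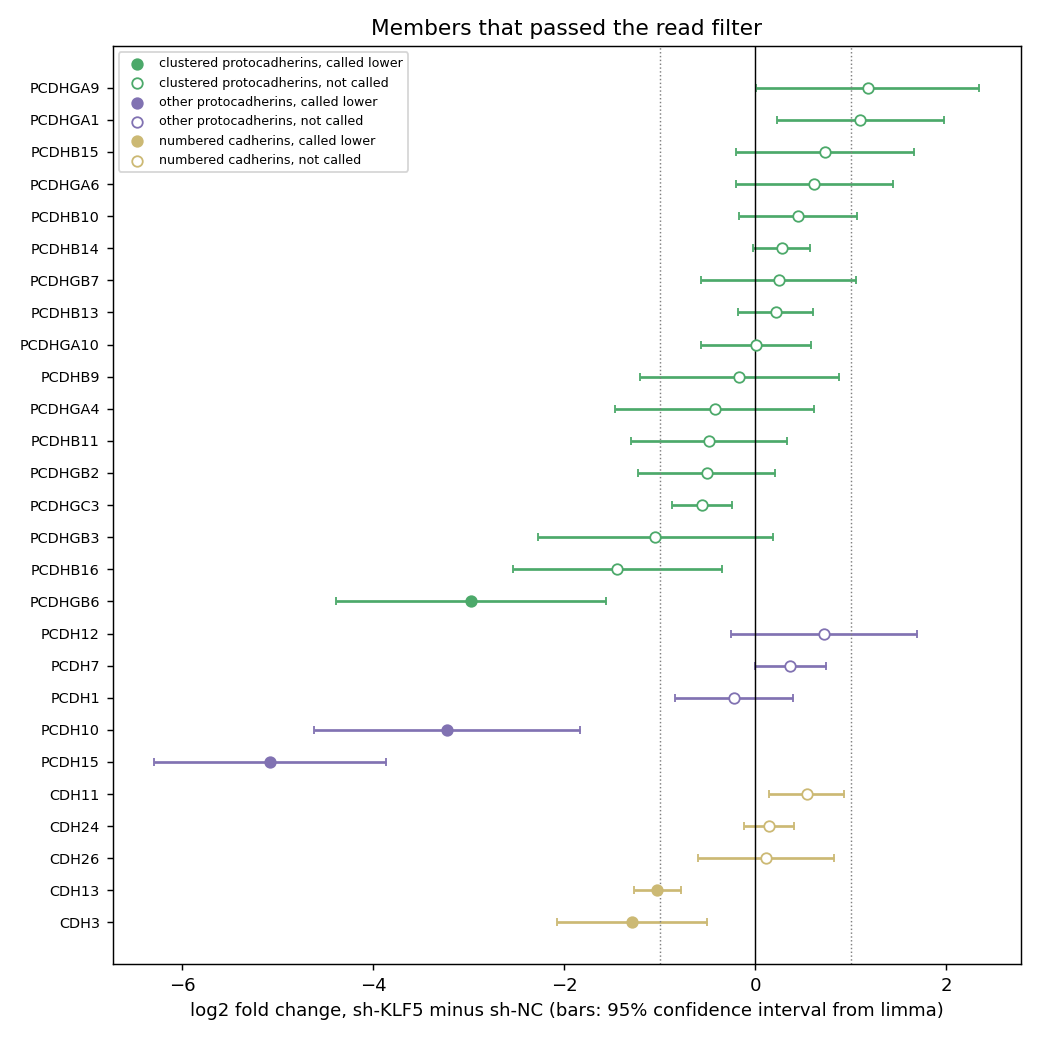
Log2 fold change (sh-KLF5 minus sh-NC, log2 of the normalized count + 1) of the 27 members that passed the read filter, with the 95% confidence interval from limma as bars and the fold threshold as dotted lines. Filled points are the 5 members called lower, from PCDH15 at -5.08 to CDH13 at -1.03.

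Among protocadherins outside the clusters, PCDH15 showed the largest difference of all tested members. PCDH15 (ENSG00000150275, chromosome 10 from 53802771 to 55627942 on the - strand of GRCh38) encodes a component of the tip links that open the mechanotransduction channels of inner ear hair cells. It had 64, 38 and 30 reads in sh-NC libraries 1, 2 and 3, and 0, 1 and 0 reads in sh-KLF5 libraries 1, 2 and 3. All sh-KLF5 libraries were thus at or near the counting limit, far below every control library. Normalized counts averaged 43.0 ± 14.7 in control cells and 0.323 ± 0.560 after silencing (SD, n = 3), a ratio of 131 with a 95% counting interval from 23.1 to 5214. The fitted log2 fold change was -5.08 (limma adjusted p = 1.43e-05, standard error 0.57), and it was -7.56 or -3.13 with 0.1 or 5 in place of the added 1. CDH23, which forms the other end of the tip link, did not pass the filter. Its reads were 7, 14 and 3 in sh-NC and 1, 3 and 2 in sh-KLF5, and 18.9% of its exonic bases overlap an antisense gene.

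PCDH10 (ENSG00000138650, chromosome 4, 133149315 to 133208606, + strand) is a delta-type protocadherin whose tail binds the WAVE complex subunit NCKAP1. Reads numbered 27, 16 and 13 in sh-NC cells and 0, 1 and 3 in sh-KLF5 cells. The groups did not overlap, and the mean normalized counts were 18.2 ± 6.06 (SD, n = 3) and 1.33 ± 1.53 (SD, n = 3). The log2 fold change was -3.23 (limma adjusted p = 0.00306, standard error 0.66), and -4.68 or -1.87 with 0.1 or 5 added. PCDH15 and PCDH10 were called in each of the 6 fits that left out 1 library, with log2 fold changes from -5.41 to -4.82 and from -3.73 to -2.73. Per kilobase of exon, both were scarce even in sh-NC, at 2.79 normalized counts for PCDH15 and 1.79 for PCDH10.

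PCDH7, PCDH1 and PCDH12, the other protocadherins outside the clusters that were tested, were not called. PCDH7, which is known to bind a protein phosphatase with its tail, was the most abundant at 28.8 normalized counts per kilobase of exon over all libraries. Its reads were 295, 318 and 306 in sh-NC and 313, 364 and 533 in sh-KLF5, with sh-KLF5 library 3 above the rest. The log2 fold change of PCDH7 was 0.37 (95% confidence interval -0.01 to 0.74, limma adjusted p = 0.199). PCDH1, an adhesion molecule of the airway epithelium, had 74, 56 and 44 reads in sh-NC and 44, 74 and 34 in sh-KLF5. These groups overlapped, and the log2 fold change was -0.23 (-0.85 to 0.39, adjusted p = 0.675). PCDH12, known from endothelial cells and lying near PCDH1 on chromosome 5, had 11, 11 and 5 reads in sh-NC and 16, 16 and 12 in sh-KLF5, with a log2 fold change of 0.72 (-0.25 to 1.69, adjusted p = 0.350). The difference from the control could therefore not be told from the spread between libraries for these genes, while their intervals still hold changes of appreciable size. Among the 4 genes that did not pass, PCDH17, chosen after its values were seen, had 13, 6 and 7 reads in control libraries but 0 in all silenced ones, at least 2.83-fold lower when 3 reads per library are allowed for the zeros. PCDH8, PCDH9 and PCDH18 had 3 reads or fewer in every library.

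**Figure D2:**
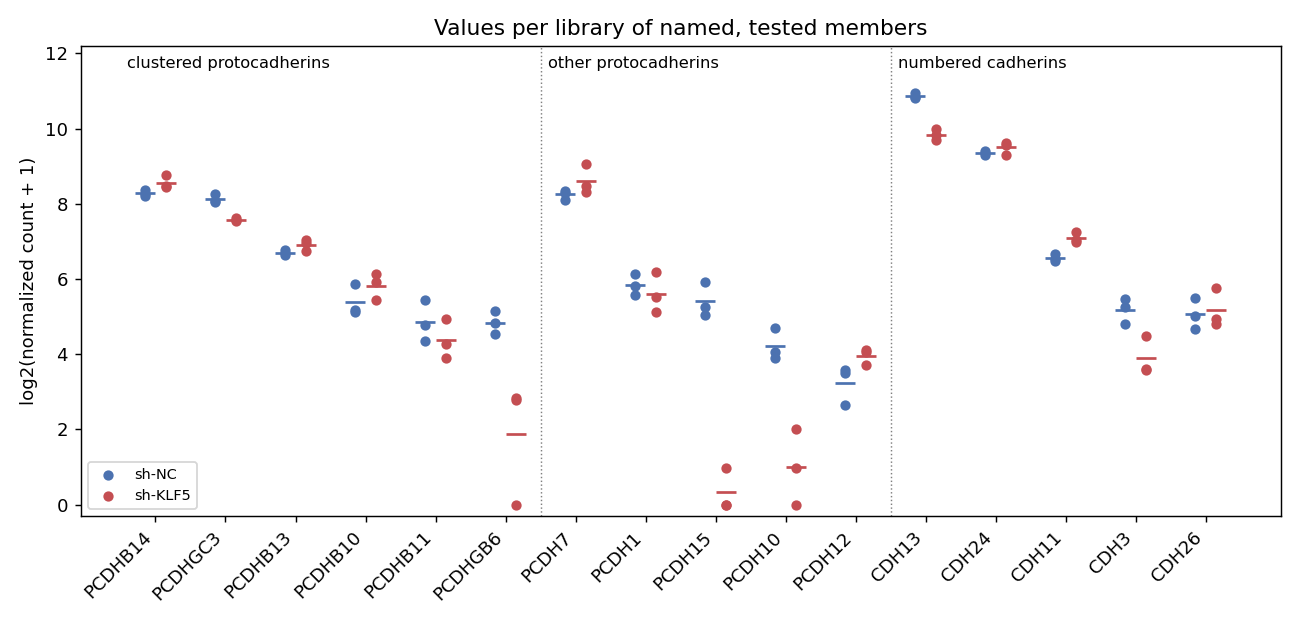
Values per library, as log2 of the normalized count + 1, of the named members that were tested, in the 3 classes, with horizontal lines at the group means. The sh-KLF5 points of PCDH15, PCDH10, PCDHGB6, CDH13 and CDH3 all lie below the sh-NC points, whereas those of PCDH1 and CDH26 overlap them.

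Among the numbered cadherins, 5 of 16 genes were tested and 2 were lower in sh-KLF5. CDH13 (ENSG00000140945, chromosome 16, 82626803 to 83800640, + strand) encodes T-cadherin, which is tied to the membrane by a lipid anchor, lacks the catenin-binding tail and binds adiponectin. It had 1924, 1992 and 1728 reads in sh-NC and 812, 938 and 1011 reads in sh-KLF5. The groups were well separated, with normalized counts of 1863 ± 89.3 (SD, n = 3) and 917 ± 93.2 (SD, n = 3), or 49.2% of the control. The log2 fold change of -1.03 (limma adjusted p = 1.68e-05, standard error 0.12) lay just past the fold threshold. It fell short of the threshold without sh-NC library 2 (-0.99, adjusted p = 0.000451) and without sh-KLF5 library 1 (-0.95, adjusted p = 4.56e-07). CDH13 was also among the most abundant members, at 166 normalized counts per kilobase of exon in sh-NC and 82.0 in sh-KLF5.

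CDH3 (ENSG00000062038, chromosome 16, 68636189 to 68722616, + strand) encodes P-cadherin, a classical cadherin of basal epithelial layers. Its reads were 29, 38 and 41 in sh-NC and 11, 22 and 11 in sh-KLF5, and the groups did not overlap. Normalized counts were 36.0 ± 8.35 (SD, n = 3) and 14.5 ± 5.91 (SD, n = 3), with a log2 fold change of -1.29 (limma adjusted p = 0.0307, standard error 0.37). The call was lost without sh-NC library 2 (adjusted p = 0.123), without sh-NC library 3 (adjusted p = 0.141) and without sh-KLF5 library 3 (adjusted p = 0.0726), with log2 fold changes of -1.25, -1.14 and -1.14. The antisense gene AC126773.2 overlaps 11.1% of the exonic bases of CDH3, and whether reads were counted by strand is not given in the sources used here.

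CDH24, a catenin-binding cadherin, was the most abundant member per length, at 184 normalized counts per kilobase of exon over all libraries. It had 726, 663 and 593 reads in sh-NC and 768, 784 and 632 reads in sh-KLF5, with overlapping groups and a log2 fold change of 0.15 (95% confidence interval -0.12 to 0.41, limma adjusted p = 0.497). CDH11, a cadherin of osteoblasts and mesenchymal cells, had 107, 90 and 87 reads in sh-NC and 129, 156 and 126 in sh-KLF5. All sh-KLF5 libraries were above the control libraries, at 136 ± 13.2 against 93.5 ± 5.57 normalized counts (SD, n = 3), but the log2 fold change of 0.54 (0.15 to 0.93) did not pass the test (limma adjusted p = 0.0689). CDH26 had 47, 32 and 23 reads in sh-NC and 29, 55 and 27 in sh-KLF5. Its log2 fold change of 0.11 (-0.60 to 0.82, adjusted p = 0.875) lay between -0.19 and 0.32 when 1 library was left out. Per kilobase, the order over all libraries was CDH24 (184), CDH13 (124), CDH11 (8.59), CDH26 (6.08) and CDH3 (4.05).

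The other 11 numbered cadherins did not pass the filter, with at most 14 reads in any library and totals of 117 reads in sh-NC and 58 reads in sh-KLF5. They included cadherins that define other tissues, named here after their values were seen. CDH2, the neural cadherin, had 13, 11 and 1 reads in sh-NC and 9, 2 and 1 in sh-KLF5. CDH5, the vascular endothelial cadherin, had 1, 3 and 0 reads in sh-NC and 0 in every sh-KLF5 library. CDH16, known from kidney epithelium, had 0, 7 and 0 reads in sh-NC and 4, 7 and 3 in sh-KLF5. At this depth no difference was detectable for these genes. CDH4, the retinal cadherin, was more even, with 10, 10 and 9 reads in sh-NC and 2, 1 and 3 reads in sh-KLF5, so that its groups did not overlap.

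The clustered protocadherins occupy chromosome 5 from 140786136 to 141512981 on the + strand in the order PCDHA, PCDHB, PCDHG. Of the 49 genes, 17 passed the filter (no PCDHA, 7 PCDHB and 10 PCDHG genes), 1 was called lower and none higher. Without sh-KLF5 library 1, 4 clustered genes were called lower, 3 without sh-KLF5 library 3, and 2 without sh-NC library 1, sh-NC library 2 or sh-KLF5 library 2. Calls over all genes also varied, with 620 of 16373 lower without sh-KLF5 library 1 and 592 of 16349 without sh-KLF5 library 3. With all libraries, 533 of 15803 genes were called lower. The median log2 fold change of the tested clustered genes was 0.01, with 8 negative and 9 positive values. A read on a constant exon can come from any gene of its array, and the counts show that such reads were not given to every gene. PCDHGA2, for example, had 2, 2 and 0 reads in sh-NC beside 289, 269 and 286 for PCDHGC3. Counts per kilobase of whole exon and array sums of PCDHA and PCDHG genes may thus be too low beside those of PCDHB genes. On the same strand, other annotated genes share 21.3% to 56.6% of the exonic bases of PCDHA genes (median 46.2%) and 27.6% to 64.4% of those of PCDHG genes (median 43.9%), so values of single PCDHA and PCDHG genes are uncertain. For PCDHB genes the shared part was at most 9.43%.

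**Figure D3:**
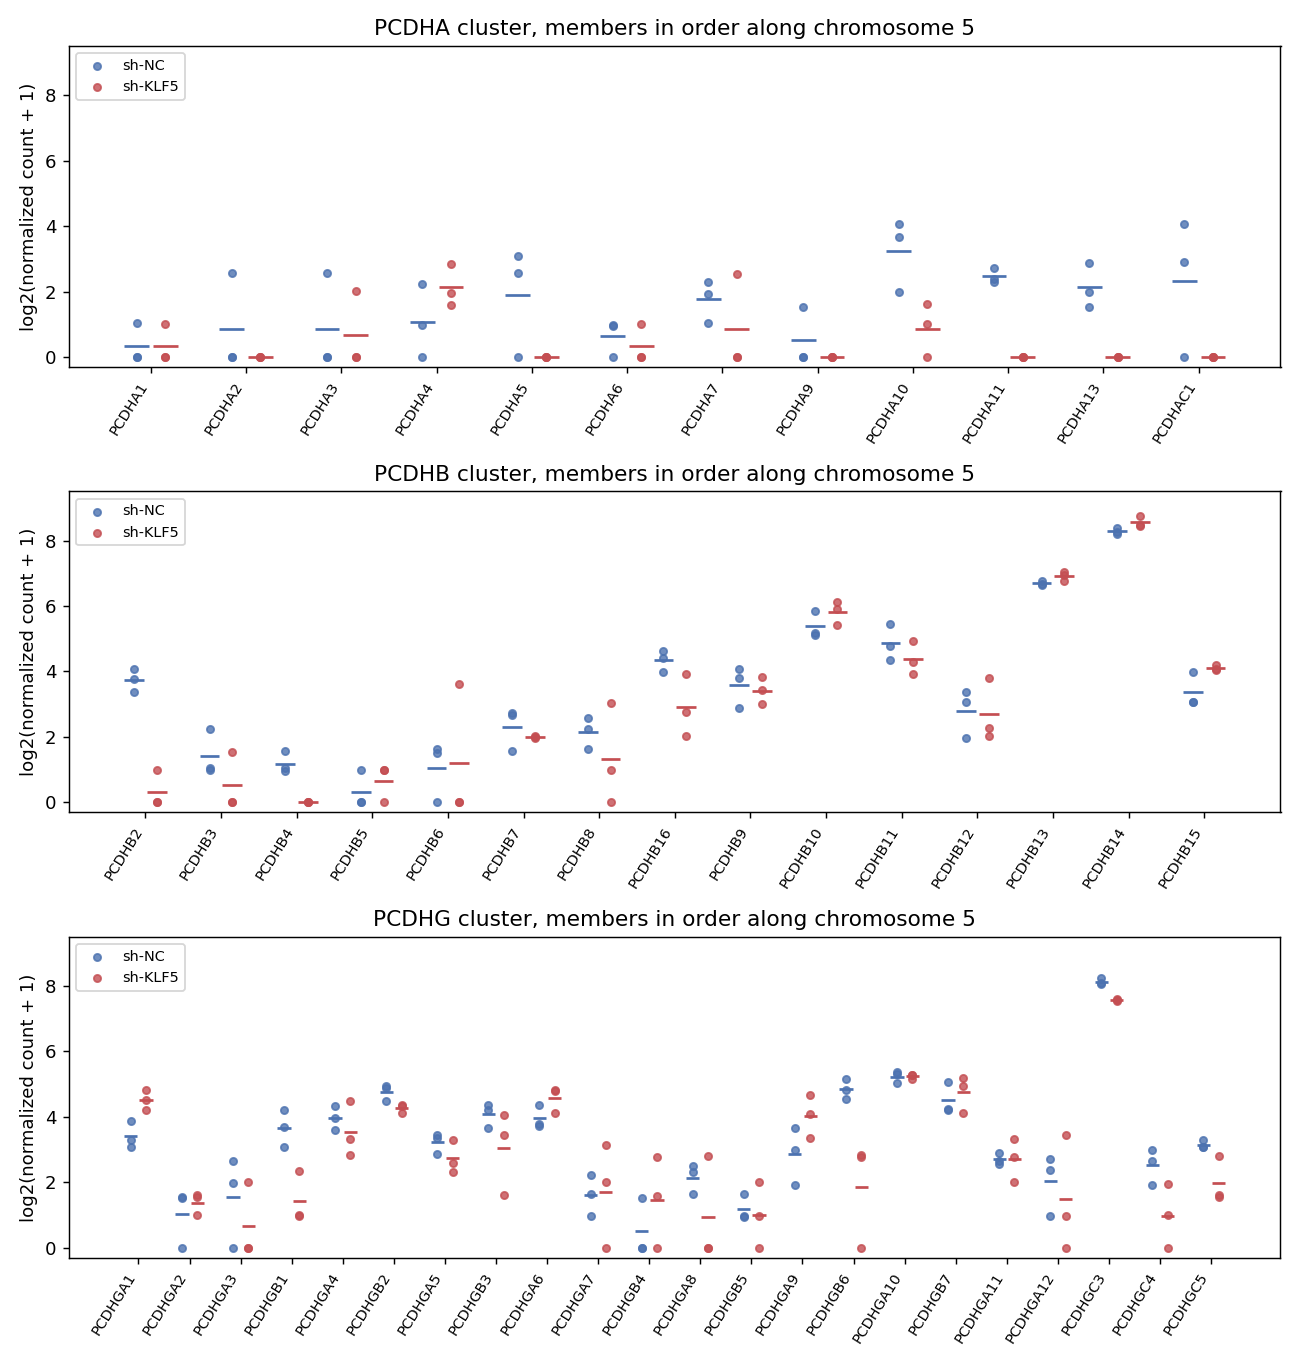
Values per library, as log2 of the normalized count + 1, of the 49 clustered protocadherins in the order of the genes along chromosome 5, with horizontal lines at the group means. PCDHB14 and PCDHGC3 stand above all other members of their arrays in both groups, and all PCDHA genes lie near the bottom of the scale.

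The promoters of these arrays share short sequence elements that were read from RefSeq (GRCh38.p14, windows from 250 bases before to 50 bases after the gene start). A promoter was found for 58 of the 74 members, among them 43 of the 49 clustered genes. The element known from clustered protocadherin promoters has the core CGCT, searched on both strands (AGCG on the other). It occurred in 42 of the 43 clustered promoters (97.7%), in 7 of 8 promoters of other protocadherins, in 7 of 7 promoters of numbered cadherins and in 70.0% of all 35116 promoters, so the core alone is common. Longer words around the core differed between the arrays. The 8-base words below were the ones held by most promoters of an array, and they are shown because none of the 3 words occurred in a promoter of another array. The words are in capitals and all sequences run 5′ to 3′ on the + strand, with PCDHA10 at chr5:140855841-140855872, PCDHB2 at chr5:141094544-141094575, PCDHB10 at chr5:141192299-141192330, PCDHB13 at chr5:141213865-141213896, PCDHB14 at chr5:141223263-141223294, PCDHGB1 at chr5:141350027-141350058, PCDHGA10 at chr5:141412933-141412964, PCDHGB6 at chr5:141407926-141407957 and PCDHGC3 at chr5:141475882-141475913.
PCDHA10: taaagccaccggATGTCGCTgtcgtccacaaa
PCDHB2: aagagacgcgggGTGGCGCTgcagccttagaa
PCDHB10: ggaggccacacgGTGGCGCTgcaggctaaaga
PCDHB13: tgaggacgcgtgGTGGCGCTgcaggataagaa
PCDHB14: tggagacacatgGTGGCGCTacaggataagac
PCDHGB1: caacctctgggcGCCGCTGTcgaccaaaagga
PCDHGA10: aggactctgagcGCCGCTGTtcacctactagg
PCDHGB6: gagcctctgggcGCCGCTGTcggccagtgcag
PCDHGC3: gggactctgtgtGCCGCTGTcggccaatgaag

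GTGGCGCT or its reverse complement AGCGCCAC was present in 13 of 13 PCDHB promoters and in 1.15% of all promoters. In PCDHB promoters it began between 1 and 83 bases before the RefSeq start (median 65). The RefSeq and the annotated starts of PCDHB genes lay a median of 22 bases apart, but the RefSeq start was 411 bases inside the annotated PCDHB14 gene and 988 bases inside PCDHB16, so that their words lie within the annotated genes. ATGTCGCT occurred in 7 of 10 PCDHA promoters and in 0.234% of all promoters, and GCCGCTGT in 11 of 20 PCDHG promoters and in 1.63% of all promoters. These words were selected on the promoters themselves, so their shares describe the arrays only. The letters of a GC box, CCCCGCCC or GGGCGGGG, were in 0 of the 43 clustered promoters and in 22.8% of all promoters. The broader CCNCNCCC or GGGNGNGG, to which Krüppel-like factors bind in many promoters and which includes every CCCCGCCC, was in 3 of 43 clustered promoters (6.98%, all of PCDHG genes), in 7 of 8 of other protocadherins, in 5 of 7 of numbered cadherins and in 56.2% of all promoters. The median GC content was 39.7% in the clustered promoters against 58.7% in all. These matches are letters in a window and say nothing of binding in these cells.

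The windows of the PCDHG genes with an adjusted p under 0.05, PCDHGB6 (chr5:141407771-141408070, + strand) and PCDHGC3 (chr5:141475716-141476015, + strand), are shown with that of PCDH15 (chr10:55627893-55628192, - strand), the member with the largest fold. Capitals mark CGCT or AGCG, and CCTCCCCC in PCDH15 is its single match to CCNCNCCC. The core occurs 3 times in the PCDHGB6 window, 6 times in that of PCDHGC3 and 7 times in that of PCDH15. The RefSeq start of PCDHGC3 lies 19 bases from the annotated start of the gene.
PCDHGB6: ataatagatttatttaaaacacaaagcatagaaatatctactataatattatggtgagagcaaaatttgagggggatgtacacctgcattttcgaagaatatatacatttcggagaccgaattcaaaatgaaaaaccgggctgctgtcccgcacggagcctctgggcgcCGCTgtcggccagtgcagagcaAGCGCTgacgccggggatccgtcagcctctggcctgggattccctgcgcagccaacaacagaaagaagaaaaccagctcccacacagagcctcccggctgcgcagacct
PCDHGC3: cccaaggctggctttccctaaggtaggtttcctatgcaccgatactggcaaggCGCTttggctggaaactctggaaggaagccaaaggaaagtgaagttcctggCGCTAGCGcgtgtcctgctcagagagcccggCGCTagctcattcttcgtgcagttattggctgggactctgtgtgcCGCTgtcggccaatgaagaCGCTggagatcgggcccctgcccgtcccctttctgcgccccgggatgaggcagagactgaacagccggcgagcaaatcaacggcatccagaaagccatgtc
PCDH15: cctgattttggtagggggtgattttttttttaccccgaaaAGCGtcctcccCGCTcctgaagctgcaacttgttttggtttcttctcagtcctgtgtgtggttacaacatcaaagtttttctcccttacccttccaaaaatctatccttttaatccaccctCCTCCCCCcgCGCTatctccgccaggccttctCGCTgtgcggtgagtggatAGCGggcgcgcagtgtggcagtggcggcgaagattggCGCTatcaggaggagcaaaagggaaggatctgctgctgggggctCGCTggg

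PCDHGB6 (ENSG00000253305, 141408021 to 141512979), a B-type gamma protocadherin, was the 1 clustered gene called lower. It had 37, 28 and 21 reads in sh-NC and 6, 6 and 0 reads in sh-KLF5, without overlap. Normalized counts averaged 28.1 ± 6.10 in control cells and 3.98 ± 3.45 after silencing (SD, n = 3). The log2 fold change was -2.98 (limma adjusted p = 0.00623, standard error 0.66), and it stayed called in all 6 fits that left out 1 library (-3.46 to -2.04). With 0.1 in place of the added 1 it was -4.17 and no longer called (adjusted p = 0.0573), and with 5 it was -1.96. For this gene, 32.2% of the exonic bases are shared with other genes of the array.

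PCDHGC3 (ENSG00000240184, 141475947 to 141512979), a C-type gamma protocadherin, was the most abundant gene of its array, at 43.1 normalized counts per kilobase of exon over all libraries. It had 289, 269 and 286 reads in sh-NC and 191, 194 and 185 reads in sh-KLF5. The groups did not overlap, with normalized counts of 279 ± 21.1 and 189 ± 4.71 (SD, n = 3), or 67.9% of the control. The log2 fold change of -0.55 (limma adjusted p = 0.0195, standard error 0.15) was smaller than the fold threshold, so PCDHGC3 was not called. It was the only member with an adjusted p under 0.05 that missed the fold threshold, and 12.9% of all tested genes had an adjusted p under 0.05. The adjusted p rose to between 0.0515 and 0.0923 without any 1 of the 3 sh-NC libraries or without sh-KLF5 library 2, with log2 fold changes from -0.59 to -0.49 over the 6 fits.

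Most other gamma genes gave few reads, and none of them was called. PCDHGA10 had 34, 39 and 38 reads in sh-NC and 37, 39 and 35 in sh-KLF5, with a log2 fold change of 0.01 (95% confidence interval -0.57 to 0.59, limma adjusted p = 0.989). PCDHGA1 and PCDHGA9, chosen after their values were seen, would be called higher only with unadjusted p-values. PCDHGA1 had 8, 9 and 13 reads in sh-NC and 27, 18 and 22 in sh-KLF5, with a log2 fold change of 1.10 (limma adjusted p = 0.0973), and PCDHGA9 had 3, 7 and 11 reads in sh-NC and 9, 25 and 16 in sh-KLF5, with a log2 fold change of 1.18 (adjusted p = 0.187). PCDHGB1, which did not pass the filter, had 19, 12 and 7 reads in sh-NC and 4, 1 and 1 in sh-KLF5. Its groups did not overlap, and 45.7% of its exonic bases are shared.

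Summed over the 22 genes, the PCDHG array had 490, 515 and 529 normalized counts in sh-NC and 381, 401 and 400 in sh-KLF5. Every sh-KLF5 library was below every sh-NC library, at 512 ± 20.1 against 394 ± 11.1 (SD, n = 3), or 77.0% of the control. PCDHGC3 made up 54.6% of this sum in sh-NC and 48.1% in sh-KLF5, and without it 88.0% of the control sum was left. The types of gamma genes had unequal ratios. The 12 PCDHGA genes summed to 111 ± 13.4 in sh-NC and to 135 ± 12.8 in sh-KLF5, with overlapping libraries. The 7 PCDHGB genes summed to 108 ± 15.8 in sh-NC and to 64.8 ± 0.514 in sh-KLF5, and the 3 PCDHGC genes to 292 ± 20.9 and 194 ± 2.28, both without overlap. Single genes weighed heavily in both sums. PCDHGB6 averaged 28.1 in sh-NC and 3.98 in sh-KLF5, PCDHGB1 12.3 and 2.02, and PCDHGC3 279 and 189. PCDHGB7 (22.7 and 27.4) and PCDHGB4 (0.621 and 2.61) had the higher mean in sh-KLF5, so the sums do not show a change of whole types. Since these sums combine chosen genes, no test is given for them.

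The PCDHB array was led by PCDHB14, PCDHB13 and PCDHB10, which lie in its downstream part. PCDHB14 (ENSG00000120327, 141222932 to 141227759) was the most abundant clustered gene over all libraries, at 71.3 normalized counts per kilobase of exon. Per kilobase of unshared exon PCDHGC3 came close, at 72.1 against 73.9 for PCDHB14. PCDHB14 had 354, 300 and 288 reads in sh-NC and 424, 361 and 351 in sh-KLF5. All sh-KLF5 libraries were above the control libraries after normalization (310 ± 17.5 against 378 ± 46.8, SD, n = 3), yet the log2 fold change of 0.28 (95% confidence interval -0.02 to 0.58, limma adjusted p = 0.226) did not pass the test. PCDHB13, with 21.9 per kilobase, had 109, 109 and 93 reads in sh-NC and 105, 126 and 129 in sh-KLF5 (log2 fold change 0.22, -0.18 to 0.61, adjusted p = 0.504). PCDHB10, with 15.0 per kilobase, had 36, 58 and 33 reads in sh-NC and 68, 61 and 42 in sh-KLF5 (log2 fold change 0.45, -0.17 to 1.06, adjusted p = 0.361). PCDHB11 had 21, 43 and 25 reads in sh-NC and 29, 19 and 14 in sh-KLF5 (log2 fold change -0.49, -1.31 to 0.33, adjusted p = 0.465). In PCDHB13, PCDHB10 and PCDHB11 the libraries of the groups overlapped.

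At the upstream end of the array, PCDHB2 (ENSG00000112852, 141094578 to 141098703) had 10, 16 and 12 reads in sh-NC and 0, 1 and 0 reads in sh-KLF5. It did not pass the filter, so no test is given, and the ratio of the groups was 37.7 with a 95% counting interval from 6.37 to 1529. The groups did not overlap, and 15.0% of its exonic bases lie opposite the antisense gene AC244517.5. The PCDHB genes with the word GTGGCGCT in the sequences above had very different levels, and none of those tested was called. All 13 PCDHB promoters found held the word, so a comparison with PCDHB genes without it was not possible. Within the array, the level per kilobase of unshared exon rose along the chromosome (Spearman's rho 0.83 over 15 genes), while rho was 0.68 over the 12 PCDHA genes and 0.11 over the 22 PCDHG genes. All genes in these descriptions come from the same 6 libraries and are not independent.

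The summed PCDHB array had 560, 586 and 526 normalized counts in sh-NC and 696, 592 and 593 in sh-KLF5, with means of 557 ± 30.1 and 627 ± 60.0 (SD, n = 3). The groups did not overlap, but by a small margin, and with library-size scaling or TMM factors they overlapped. PCDHB14 made up 55.7% of the sum in sh-NC and 60.3% in sh-KLF5. Without PCDHB14 the sums were 247 ± 38.0 and 249 ± 13.2, and overlapped. Reads were found on 14 PCDHB genes in every sh-NC library, and on 11, 12 and 11 in the sh-KLF5 libraries. Over the whole table, the sh-KLF5 libraries also had reads on fewer genes than sh-NC libraries 1 and 2.

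By these counts the PCDHA array was the least abundant, although reads on its constant exons may not have been counted. No PCDHA gene had enough reads to be tested. Its 12 genes together had 50, 47 and 23 reads in sh-NC and 8 reads in each sh-KLF5 library. In normalized counts the sum averaged 39.1 ± 12.7 before and 7.98 ± 0.199 after silencing (SD, n = 3), or 20.4% of the control, without overlap. PCDHA10, with 17, 3 and 11 reads in sh-NC and 2, 0 and 1 in sh-KLF5, had the highest mean in sh-NC, and the ratio of its groups was 10.3 with a 95% counting interval from 3.20 to 52.4. Without PCDHA10 the sum in sh-KLF5 was 24.1% of the control. The mean of sh-NC was above that of sh-KLF5 in 11 of the 12 genes, the exception being PCDHA4 with 4, 1 and 0 reads in sh-NC and 6, 3 and 2 in sh-KLF5. Some of the 11 rest on very few reads, such as PCDHA1 with 1 read in each group and PCDHA6 with 2 reads in sh-NC and 1 in sh-KLF5. Of all tested genes, 50.3% had a negative log2 fold change, but no PCDHA gene was among those tested. Reads were found on 9, 10 and 5 PCDHA genes in the sh-NC libraries and on 2, 2 and 5 in the sh-KLF5 libraries, where fewer genes of the whole table also had reads than in sh-NC libraries 1 and 2. All sh-KLF5 libraries were at 0 for 6 of the 12 genes.

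**Figure D4:**
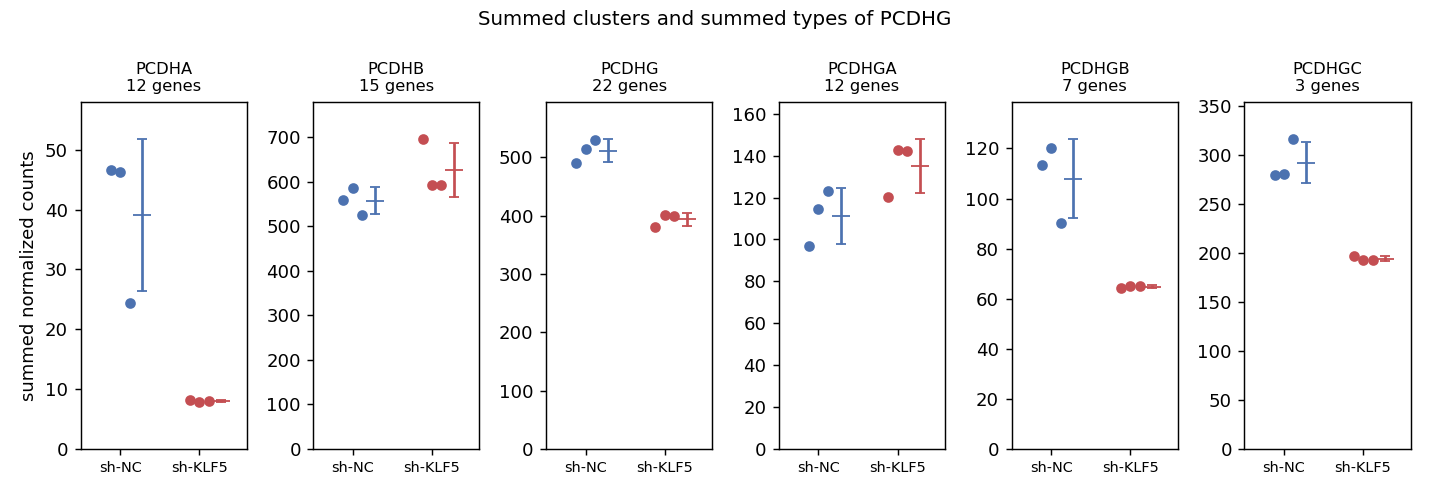
Summed normalized counts of the 3 protocadherin arrays and of the 3 types of PCDHG genes, 1 point per library, with the mean and SD of 3 libraries beside the points and each vertical axis starting at 0. The sh-KLF5 points lie below the sh-NC points for PCDHA, PCDHG, PCDHGB and PCDHGC. For PCDHB they lie just above them in the deposited scaling. For PCDHGA the points of the groups overlap, with the higher mean in sh-KLF5.

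Genes that work with cadherins were mostly not called, but some had an adjusted p under 0.05 with a fold short of the threshold. Examples were ABI2 of the WAVE complex (log2 fold change -0.92, limma adjusted p = 0.000203) and, in the other direction, JUP (0.61, adjusted p = 0.00549). Of 15 catenins and junction partners, 11 were tested, 1 was lower and none higher, with a median log2 fold change of -0.12. The lower gene was NECTIN3, a nectin that starts cell contacts together with cadherins, at 93, 55 and 62 reads in sh-NC and 27, 23 and 11 in sh-KLF5 (log2 fold change -1.78, limma adjusted p = 0.00201, standard error 0.34). Among 17 atypical and large cadherins, 11 were tested and 1 was higher, FAT4, a receptor of planar cell polarity, with 75, 78 and 50 reads in sh-NC and 153, 138 and 187 in sh-KLF5 (log2 fold change 1.25, limma adjusted p = 0.000736, standard error 0.21). The median of this list was -0.30. Of 12 genes of the WAVE complex and of kinases that bind protocadherin tails, 11 were tested and 1 was lower, CYFIP2, a WAVE complex subunit, with 85, 50 and 55 reads in sh-NC and 23, 30 and 15 in sh-KLF5 (log2 fold change -1.45, limma adjusted p = 0.00517, standard error 0.31), and the median was -0.12. None of 6 genes for shedding and processing of cadherins was called (median 0.09), and none of 10 chromatin factors known to act at the clustered protocadherins, such as CTCF and cohesin subunits, was called (median -0.21). With at most 1 call in a list, against 3.37% of all tested genes called lower and 1.9% called higher, these counts are given as a description of the lists. Irrespective of fold, the adjusted p was under 0.05 for 4 of 11 catenins and junction partners and for 3 of 11 atypical and large cadherins. It was under 0.05 for 3 of 11 WAVE complex and kinase genes, 1 of 10 chromatin factors and 0 of 6 processing genes, beside 12.9% of all tested genes.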

How the data were processed

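Poly(A) RNA of SKOV3 cells was sequenced in 3 sh-NC and 3 sh-KLF5 libraries, assigned from the sample titles. The authors deposited 1 table of normalized signal, the read counts scaled by a library-specific factor. The submitters' processing notes name HISAT2 2.0.5, featureCounts 1.5.0-p3, DESeq2 1.20.0 and hg38. The table also holds the authors' group means, fold changes and p-values, which were not used.

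The smallest nonzero value of a library was taken as the worth of 1 read, and dividing by it gave whole numbers for 100% of values (tolerance 1e-06). limma 3.58.1 (R 4.3.3, trend and robust) was fitted to log2(normalized count + 1) of the 15803 genes that passed filterByExpr (minimum count 10). edgeR 4.0.16 and DESeq2 1.42.0 on the recovered reads, other scalings, filters, pseudocounts, unadjusted p-values, a replicate block and leaving out each library were alternatives. On simulated counts, limma recovered 100% of 200 changed genes among 15529 with 2 false calls. The simulation gave all genes the same dispersion and changed only genes with a mean count above those of PCDH10 and PCDHGB6. It therefore cannot show how well changes of genes with few reads are recovered. Counting intervals and limits (3 reads) cover counting error only. Exon overlaps come from GENCODE release 29, promoters from RefSeq GRCh38.p14.

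The members and lists were chosen with earlier results of these data known. Text names called members, members with an adjusted p under 0.05, the 5 tested members of each class with the highest level per exon length, untested members with a mean of 10 or more reads in a group, and called list genes, and other genes were added after their values were seen. 1 numbered cadherin is not reported here.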

Additional observations from a re-analysis of the deposited data

How the results depend on the processing

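The count of 5 lower and 0 higher members, and the same 5 genes, were obtained with library-size scaling, TMM factors, edgeR, DESeq2 and a pseudocount of 5. Libraries with the same replicate number were not paired (correlations of same-numbered deviations 0.062, 0.023 and 0.059), and a replicate block also gave 5 lower members. Without the filter, 14 members were lower, 8 of them clustered, and 1 atypical cadherin was lower. With at least 10 reads in every library, 2 members were lower (CDH13 and CDH3), 0 of them clustered and 0 among other protocadherins, because fewer genes were tested. With unadjusted p-values, 2 clustered genes were lower and 2 were higher, which were the 2 higher members of all. Over all 15803 tested genes, 656 were then lower and 377 higher. With a pseudocount of 0.1, 0 clustered genes were called. Leaving out 1 library gave 4 to 7 lower members, 1 to 4 lower clustered genes and 0 to 2 lower numbered cadherins (0 without sh-NC library 2, and 1 without sh-NC library 3, sh-KLF5 library 1 or sh-KLF5 library 3). Over all tested genes, 461 to 620 were called lower when 1 library was left out, against 533 with all libraries. These fits tested 28 to 31 members instead of 27, and the clustered genes that joined PCDHGB6 were PCDHB2, PCDHA10, PCDHGB1 and PCDHB16. The log2 fold change of CDH26 then ranged from -0.186 to 0.324, and that of PCDH1 from -0.512 to 0.014. For single named genes, 185 values under other settings kept direction and side of the threshold and 1 did not; without 1 library, 106 did, 3 reversed and 5 lost the call. The 47 untested members had at most 19 reads in any library, which limits what could be detected for them.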
